A study of Mus musculus with 11 samples.

Results

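A set of genes that act in homologous recombination and the DNA damage checkpoint were followed in whole mouse livers during induction of the transcriptional co-activator YAP. Its 9 genes were taken by symbol from the 20893 genes of the deposited liver RNA-seq table: Exo1, Blm, Brca1, Brca2, Rad51ap1, Rad54l, Fancd2, Chek1 and Chek2. All 9 were in the table and all 9 passed the filter on low values, Exo1 only with its 7-day livers counted. The libraries came from 11 livers of C57BL/6 mice, 1 library per liver. The 4 control livers carried the ROSA26-rtTA-IRES-EGFP allele, were WT for the tetYAP transgene, and received doxycycline food for 7 days. The other livers carried ROSA26-rtTA-IRES-EGFP together with tetYAP, and received doxycycline for 3 days (4 livers) or 7 days (3 livers). The transactivator rtTA is thus common to all 3 groups, and no control was sampled at 3 days. By the study's methods the transgene encodes YAP S127A, a constitutively active form, and a Cre recombinase under the albumin promoter switches rtTA on in hepatocytes. RNA was taken from homogenised liver, so the transcripts of all its cells were measured together. Ages are not given in the sources used here. The p-values below measure the spread between livers within their groups, pooled over all 3 groups.

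Homologous recombination repairs a broken chromosome by copying the intact sister chromatid and is therefore used mainly in S and G2 phase. The broken ends are first trimmed to single strands by nucleases and helicases, a protein filament is then built on the strands with the help of BRCA1 and BRCA2, and the filament invades the sister. In parallel, the kinases ATR and ATM activate CHK1 and CHK2, which hold the cell cycle. Most hepatocytes of an adult liver are quiescent, and many of these genes are transcribed at a low level outside cycling cells.

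After 7 days of YAP induction all 9 genes had a higher level than in the controls, and for each of them all 3 livers lay above all 4 control livers. Of the 9 genes, 6 passed the test (Exo1, Brca1, Brca2, Rad51ap1, Fancd2 and Chek1), 3 did not (Blm, Rad54l and Chek2), and 0 passed it as lower. Across all 14244 tested genes 18.0% were called higher and 5.77% lower in the same comparison, and 36.7% had all 3 livers above all controls. The median log2 fold change was 1.84 over the 9 genes and 0.26 over all tested genes. The 9 genes were chosen with earlier results of these data known, so their comparison with all tested genes is a description. After 3 days 0 of the 9 genes passed, and 2 of them (Brca1 and Chek1) had an unadjusted p under 0.05, as did 12.1% of all tested genes. A limma-voom fit on the read counts recovered from the values also called 0 at 3 days. The background at 3 days was 0.0421% of genes called higher and 0% lower.

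Levels are given as eRPKM, a read density that is scaled to exon length and to library size, so that genes of unlike length share one scale. For very abundant genes such as Alb, reads did not follow library depth. Their eRPKM is therefore not comparable with other genes or between livers of unlike depth. Fold changes are differences of log2(eRPKM + 0.5), which understate the change of genes below about 1 eRPKM. A gene was called when its Benjamini-Hochberg adjusted p from limma was under 0.01 over all tested genes and its absolute log2 fold change was above 0.5. Depth ranged from 1251396 to 5495697 reads on genes in the control livers, from 2660233 to 3681416 after 3 days and from 5312486 to 5941357 after 7 days. Genes above 0 numbered 14630 to 18036, 15133 to 15709 and 15796 to 19280 in the same order, and control livers 1 and 2 and 7-day liver 2 stood apart with the most. Reads of Xist and Ddx3y marked 2 female and 2 male livers among the controls and at 3 days, and 3 female livers at 7 days. Yap1 itself was listed at 18.2 ± 3.10 eRPKM in the controls, 16.8 ± 1.83 at 3 days and 18.4 ± 0.862 at 7 days (SD). Its level therefore gave no check of the induction labels, and which reads of the transgene are counted on this row was not tested.

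**Figure D1:**
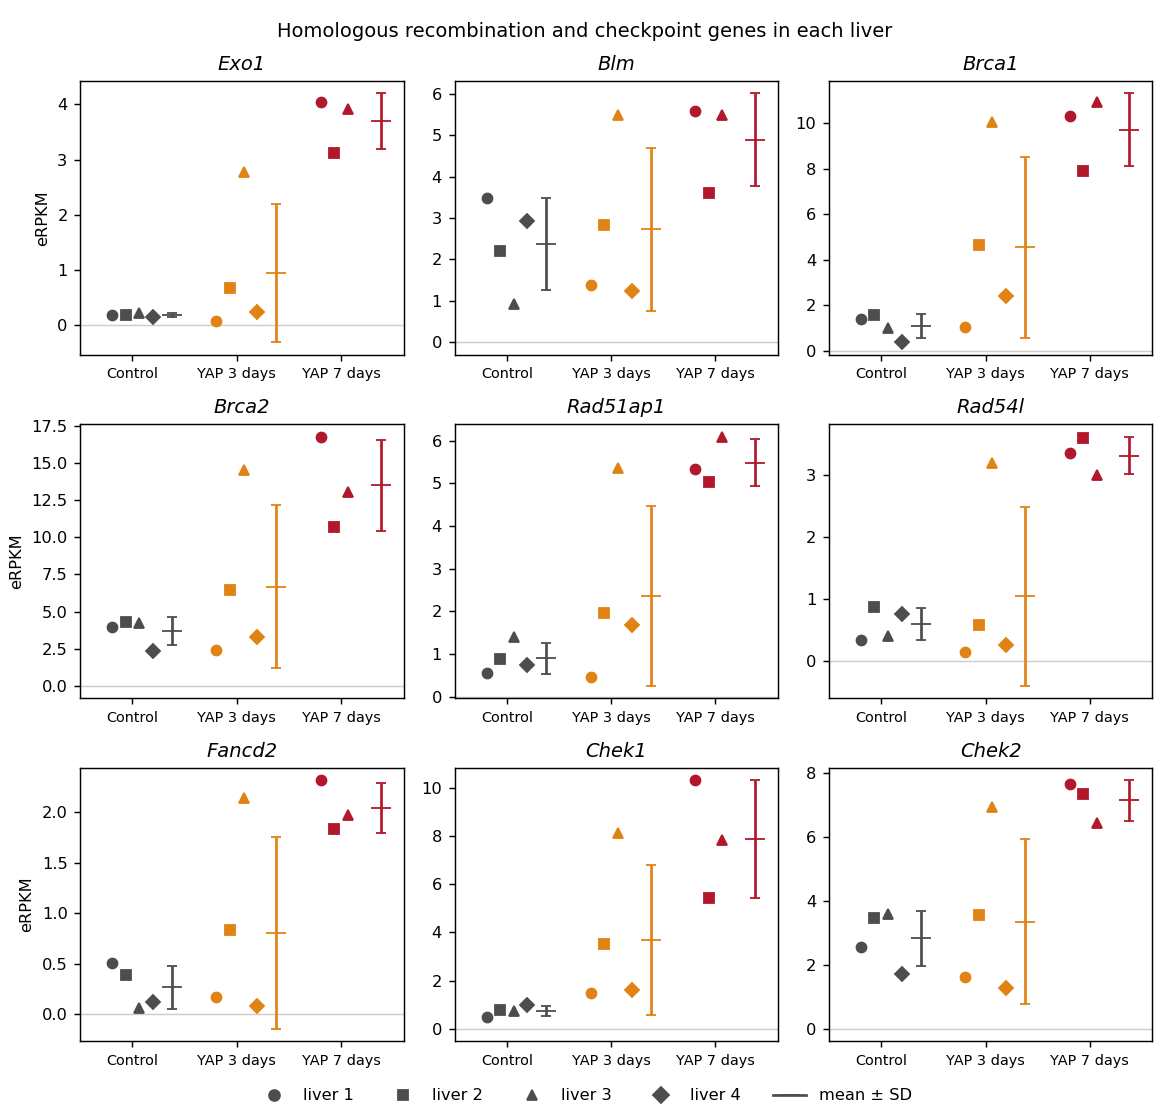
Level of each of the 9 genes (y axis, eRPKM, linear) in every liver of the control, 3-day and 7-day groups. Symbols mark livers 1 to 4 and the bar to their right shows mean ± SD. All 3 livers at 7 days lie above all 4 controls in each panel, and liver 3 is the highest of the 3-day group in each panel.

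The promoters of 7 of the 9 genes were in the RefSeq table of 300-base windows (250 bases before to 50 after the start, build GRCm38.p6). Motifs that are known from cell cycle promoters were searched on both strands, with these letters chosen when the promoter letters were in view. The E2F core site GCGGGAA (other strand TTCCCGC) was in 4 of the 7 windows and in 4.66% of all 27025 promoters. The CHR element TTTGAA (other strand TTCAAA) was in 0 of 7 and in 18.1% of all, and the CCAAT box (other strand ATTGG) was in 5 of 7 and in 37.9% of all. The 4 core sites are shown with the core site in capitals and each sequence read 5′ to 3′ along the gene's own strand. They start at position -168 in Brca2 and -152 in Chek2, upstream of the start, and at position 13 in Rad51ap1 and 44 in Chek1, within the transcribed part. A match is a stretch of letters and not evidence of binding.

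Brca2, chr5:150522428-150522487, plus strand: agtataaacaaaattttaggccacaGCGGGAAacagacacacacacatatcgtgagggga

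Chek2, chr5:110839806-110839865, plus strand: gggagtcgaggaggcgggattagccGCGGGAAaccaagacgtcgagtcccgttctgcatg

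Rad51ap1, chr6:126939558-126939587, minus strand: gtctggttttcgGCGGGAAttgaaaccgcc

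Chek1, chr9:36726609-36726638, minus strand: cagcatgacgcaagcaggttttgGCGGGAA

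Of these 4 genes, Brca2, Rad51ap1 and Chek1 were called higher at 7 days and Chek2 was not. Windows without the core site belonged to Brca1, which was called, and to Blm and Rad54l, which were not.

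The first step of recombination is the trimming of the ends. Exo1 (ENSMUSG00000039748, mm9 chr1:177810909-177841527, plus strand) encodes a 5′ to 3′ exonuclease that lengthens the single strands. In the control livers Exo1 was at 0.181, 0.192, 0.220 and 0.141 eRPKM, from 1 to 6 reads per library. At 3 days livers 1 to 4 gave 0.0661, 0.680, 2.78 and 0.239 eRPKM, and at 7 days the livers gave 4.05, 3.11 and 3.92 eRPKM from 105 to 123 reads. Exo1 was therefore near 0 in every control and separated the groups at 7 days without overlap, while the 3-day livers ranged from below all controls (liver 1) almost to the 7-day level (liver 3). Outside the 7-day group only 3-day livers 2 and 3 reached the 0.5 eRPKM that the filter asks of 3 libraries. Exo1 was thus tested only because its 7-day livers were high, which limits what its call at 7 days can show. The mean rose from 0.183 ± 0.0327 (SD, n = 4) to 3.69 ± 0.506 (SD, n = 3), with a log2 fold change of 2.61 ± 0.47 (SE) and an adjusted p of 0.000875. At 3 days the log2 fold change was 0.72 with a 95% confidence interval of -0.21 to 1.66 and an adjusted p of 0.529. Exo1 was the 1 gene of the 9 that was also called between 3 and 7 days, where it rose by 1.89 ± 0.47 on the log2 scale (adjusted p 0.0081). That call was made in 7 of 27 ways of fitting the data, with an adjusted p of up to 0.11. In that comparison 14.0% of all tested genes were called higher and 5.31% lower.

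Blm (ENSMUSG00000030528, chr7:87599879-87680005, minus strand) encodes a RecQ helicase that unwinds ends during trimming and later takes crossed strands apart. Its control livers gave 3.48, 2.20, 0.915 and 2.93 eRPKM, its 3-day livers 1.38, 2.83, 5.48 and 1.25, and its 7-day livers 5.58, 3.61 and 5.49. The lowest 7-day liver (3.61) lay just above the highest control (3.48), and 3-day liver 3 lay within the 7-day range. Blm did not pass the test at 7 days, with 0.98 ± 0.45 on the log2 scale (interval 0.01 to 1.95, adjusted p 0.102). At 3 days the difference was 0.08 (interval -0.82 to 0.98, adjusted p 0.960). It was the gene with the widest control spread of log2(eRPKM + 0.5) (SD 0.66, against a median of 0.37 over the 9 genes). That rank rests on the pseudocount. The highest control over the lowest was 3.81 for Blm, but 8.03 for Fancd2 and 4.15 for Brca1.

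Brca1 and Brca2 act next, when the trimmed strands are prepared for invasion. Brca1 (ENSMUSG00000017146, chr11:101350078-101413269, minus strand) encodes a ubiquitin ligase subunit that favours trimming and recruits PALB2 and BRCA2. The control livers had 1.42, 1.56, 1.02 and 0.376 eRPKM of Brca1, those at 3 days 1.06, 4.66, 10.1 and 2.42, and those at 7 days 10.3, 7.90 and 10.9. At 3 days livers 2, 3 and 4 were above all controls and liver 3 was within the 7-day range, whereas liver 1 stayed among the controls. Brca1 rose at 7 days by 2.74 ± 0.52 on the log2 scale, with means of 1.09 ± 0.529 and 9.71 ± 1.60 eRPKM and an adjusted p of 0.0014. Brca1, Chek1 and Exo1 had the 3 highest log2 fold changes, but their order rests on the pseudocount, since the ratio of means without it was 8.88 for Brca1, 10.5 for Chek1 and 20.1 for Exo1. At 3 days the log2 fold change of Brca1 was 1.39 (interval 0.34 to 2.44), with an unadjusted p of 0.0136 and an adjusted p of 0.269. From 3 to 7 days it was 1.35 (adjusted p 0.0611).

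Brca2 (ENSMUSG00000041147, chr5:151325205-151372321, plus strand) encodes a tumour suppressor protein that works on the single-stranded DNA. Its values were 3.98, 4.32, 4.25 and 2.32 eRPKM in the controls, 2.40, 6.48, 14.5 and 3.31 at 3 days, and 16.8, 10.7 and 13.1 at 7 days. Brca2 had the highest mean level of the 9 genes in every group, and 3-day liver 3 lay inside its 7-day range. The mean went from 3.71 ± 0.944 to 13.5 ± 3.07 eRPKM, a log2 fold change of 1.74 ± 0.46 that passed at an adjusted p of 0.0094. At 3 days the difference was 0.50 (interval -0.41 to 1.42, adjusted p 0.663), and from 3 to 7 days it was 1.24 (adjusted p 0.0496).

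Rad51ap1 and Rad54l act when the trimmed strand invades the sister chromatid. Rad51ap1 (ENSMUSG00000030346, chr6:126873068-126889605, minus strand) encodes a protein that stimulates strand invasion. It was at 0.553, 0.896, 1.41 and 0.739 eRPKM in the controls, at 0.462, 1.95, 5.36 and 1.67 at 3 days, and at 5.35, 5.02 and 6.09 at 7 days. As for Brca1, 3 of the 4 livers at 3 days exceeded every control and liver 1 did not. Rad51ap1 rose at 7 days from 0.899 ± 0.367 to 5.49 ± 0.547 eRPKM, by 2.13 ± 0.46 on the log2 scale (adjusted p 0.00327). Its 3-day difference was 0.78 (interval -0.15 to 1.71, adjusted p 0.499).

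Rad54l (ENSMUSG00000028702, chr4:115766869-115796295, minus strand) encodes an ATP-driven motor that moves along DNA and promotes strand exchange. Control livers gave 0.341, 0.862, 0.394 and 0.758 eRPKM, 3-day livers 0.142, 0.575, 3.20 and 0.258, and 7-day livers 3.36, 3.60 and 3.00. Livers 1 and 4 of the 3-day group were below all controls, liver 3 alone was above them, and the 7-day livers were more than 3 times the highest control. The log2 fold change at 7 days was 1.84 ± 0.49 (interval 0.78 to 2.90), and its adjusted p of 0.0102 lay just outside the threshold of 0.01. At 3 days the difference was 0.15 (adjusted p 0.925) and without liver 3 it was -0.40. Of the exon bases of Rad54l, 15.4% also belong to Lrrc41 on the opposite strand, and the unstranded libraries cannot separate the reads of the overlapping part.

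Fancd2 (ENSMUSG00000034023, chr6:113481676-113547011, plus strand) encodes the central protein of the Fanconi anaemia pathway, which is ubiquitinated at crosslinks and stalled forks and hands them to the recombination machinery. Its controls were at 0.505, 0.385, 0.0629 and 0.121 eRPKM, from 1 to 14 reads. At 3 days Fancd2 was at 0.170, 0.834, 2.14 and 0.0822 and after 7 days at 2.32, 1.83 and 1.97 eRPKM. Fancd2 was the lowest of the 9 genes at 7 days, yet the controls and the 7-day livers did not overlap, and 3-day liver 3 reached the 7-day range. The increase at 7 days was 1.76 ± 0.45 on the log2 scale (means 0.268 ± 0.211 and 2.04 ± 0.25 eRPKM, adjusted p 0.00845). The 3-day difference was 0.54 (interval -0.37 to 1.44, adjusted p 0.634). A small stretch of its exons, 3.24% of the bases, overlaps 4931417G12Rik on the other strand.

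Chek1 and Chek2 are the checkpoint kinases of the group. Chek1 (ENSMUSG00000032113, chr9:36516067-36534650, minus strand) encodes the kinase that ATR activates at stalled forks and single-stranded DNA. The control livers had 0.512, 0.770, 0.725 and 0.996 eRPKM of Chek1, the 3-day livers 1.496, 3.503, 8.13 and 1.62, and those at 7 days 10.3, 5.45 and 7.84. Chek1 was the 1 gene of the 9 for which all 4 livers at 3 days already lay above all controls, as was the case for 3.38% of all tested genes. At 7 days Chek1 rose by 2.71 ± 0.44 on the log2 scale, from 0.751 ± 0.199 to 7.87 ± 2.44 eRPKM (adjusted p 0.00047). The 3-day difference was 1.49 ± 0.41 (interval 0.60 to 2.38), which had an unadjusted p of 0.00314 but an adjusted p of 0.149. Without liver 3 it was 1.05.

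Chek2 (ENSMUSG00000029521, chr5:111269036-111303152, plus strand) encodes the kinase that ATM activates at double-strand breaks. Its level was 2.55, 3.45, 3.59 and 1.73 eRPKM in the controls, 1.62, 3.57, 6.92 and 1.29 at 3 days, and 7.66, 7.33 and 6.42 at 7 days. Livers 1 and 4 at 3 days were below every control, and liver 3 was within the 7-day range. Chek2 did not pass at 7 days, with 1.24 ± 0.42 on the log2 scale (interval 0.32 to 2.15, adjusted p 0.036). At 3 days the difference was 0.02 (interval -0.84 to 0.87, adjusted p 0.992), and its sign changed with the processing.

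**Figure D2:**
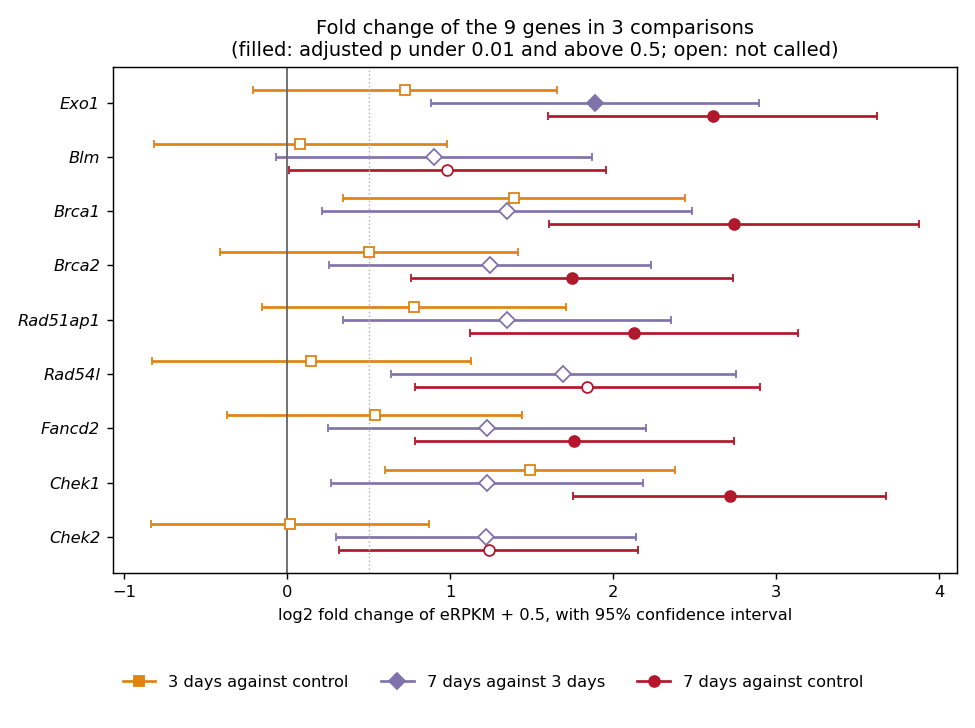
Log2 fold change of eRPKM + 0.5 (x axis) with its 95% confidence interval for the 9 genes in 3 comparisons; filled symbols were called and open symbols were not, and the dotted line marks 0.5. The 7-day values against control run from 0.98 (Blm) to 2.74 (Brca1) and 6 of them are filled, none of the 3-day values is filled, and Exo1 is the filled value between 3 and 7 days.

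The order of the levels shifted between the groups. In the controls it ran Brca2, Chek2, Blm, Brca1, Rad51ap1, Chek1, Rad54l, Fancd2, Exo1 from high to low, and the ranges of every neighbouring pair overlapped. At 7 days it ran Brca2, Brca1, Chek1, Chek2, Rad51ap1, Blm, Exo1, Rad54l, Fancd2. Among those neighbours the ranges of Chek2 and Rad51ap1 did not overlap, nor did those of Rad54l and Fancd2, and the others did. Brca1 and Chek1, which were below Chek2 and Blm in the controls, thus stood above them by their means at 7 days, and Exo1 moved from the last place to the seventh.

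The robustness of the 7-day calls differed between the genes. Over 27 ways of fitting the data, the reported one included, Chek1 was called in 26, Exo1 and Brca1 in 25 each and Rad51ap1 in 20. Brca2 was called in 10 of 27, Fancd2 in 10 of the 26 in which it was tested, Rad54l in 6, Chek2 in 2 and Blm in 0. Over all tested genes 6.67% to 20.1% were called higher in these fits. The log2 fold change of all 9 genes at 7 days was above 0 in each of these fits, from 0.29 at the lowest (Blm) to 4.08 at the highest (Exo1). The number of genes called fell from 6 to 3 without control liver 1 and to 3 without any 1 of the 7-day livers, and rose to 8 without 3-day liver 3. Over all tested genes 14.6%, 11.1% to 12.1% and 19.4% were called higher in these fits. When control livers 1 and 2 and 7-day liver 2 were left out together, 0 of the 9 were called. Their log2 fold changes were 1.32 to 3.27, with adjusted p from 0.0163 to 0.162, while 6.67% of all tested genes were called higher. Depth was higher at 7 days than in 3 of the 4 controls. With log2 depth as a covariate Chek1 alone was called, as were 7.72% of all tested genes as higher.

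The 4 livers of the 3-day group did not behave as 1 level. Liver 3 was the highest of its group for 9 of the 9 genes, above all controls for 9, and at or above the lowest 7-day liver for 8, with Exo1 as the exception. Liver 2 was above all controls for 6 genes, liver 4 for 4 and liver 1 for 1. How many of all tested genes lay above all controls in a single liver was not counted, so these counts are a description. On the log2 scale livers 1 to 4 were above the control mean for 2, 9, 9 and 4 of the 9 genes. Of all 14244 tested genes, 6339, 7605, 7997 and 7386 were above it in the same livers. Liver 1 was the lowest of the group for 6 genes and liver 4 for 3. Livers 1 and 4 share the suffix MF in their deposited column names with 7-day liver 2, which was the lowest of its group for 7 genes, and the meaning of the suffix is not given in the sources used here. Without these 3 libraries the 3-day log2 fold changes of the 9 genes ran from 0.73 (Blm) to 2.29 (Brca1), and 0 were called. Over all tested genes 0.288% were called higher in that fit, against 0.0421% with all libraries. The part of this split in the result was not tested. Livers 1 and 2 were male and livers 3 and 4 female, so the higher and lower pairs each held 1 of either sex. Averaged over the 9 genes, log2(eRPKM + 0.5) minus the control mean was -0.29, 0.82, 1.98 and 0.01 in 3-day livers 1 to 4. The same average was 2.13, 1.79 and 2.005 at 7 days and -0.17 to 0.18 in the controls. The median SD on this scale was 1.05 at 3 days, 0.37 in the controls and 0.18 at 7 days. Over all tested genes the median SD was 0.34, 0.32 and 0.18 in the same order. The width of the 3-day group was therefore larger for these genes than for the median gene. Because the fit pools the spread of the 3 groups, this width also enters the tests of 7 days against control. Between 3-day livers 1 and 3 the level of Brca1 differed 9.53-fold, and Exo1 had 1 read in liver 1 and 58 reads in liver 3. The comparison of 7 with 3 days depended on liver 3: 1 gene was called with it and 8 without it, Blm being the exception. Over all tested genes 14.0% were called higher with it and 18.4% without it.

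Genes of cycling cells were also uneven among the 3-day livers, not all in the same order. The average of 7 markers of proliferating cells over their control mean was 0.71, 2.22, 2.87 and 1.78 on the log2 scale in 3-day livers 1 to 4, and 3.38, 3.30 and 2.93 at 7 days. Controls ranged from -0.52 to 0.71. Mki67, which marks cycling cells, was at 2.39, 22.7, 37.2 and 8.24 eRPKM in 3-day livers 1 to 4, at 1.33 to 6.72 in the controls and at 32.1 to 53.1 at 7 days. E2f1, a transcription factor of S phase genes, was at 3.63, 6.28, 14.3 and 5.06 eRPKM at 3 days, at 1.77 to 2.72 in the controls and at 27.3 to 29.6 at 7 days. Ccna2, the cyclin of S and G2 phase, went from 2.48 ± 1.05 to 12.1 ± 7.26 and 27.3 ± 8.09 eRPKM. Pcna, the sliding clamp of replication, was at 84.4, 75.6, 124 and 97.7 eRPKM in 3-day livers 1 to 4, at 41.3 to 54.2 in the controls and at 92.4 to 100.2 at 7 days. All 4 livers at 3 days were thus above all controls for Pcna, as they were for E2f1. For Pcna livers 1 and 4 were above liver 2, whereas for Mki67 and E2f1 they were below it. All 7 markers were called higher at 7 days and 0 at 3 days by limma or limma-voom, where each of the 7 had a positive log2 fold change and an unadjusted p under 0.05. The part of cycling cells in the levels of the 9 genes was not tested.

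**Figure D3:**
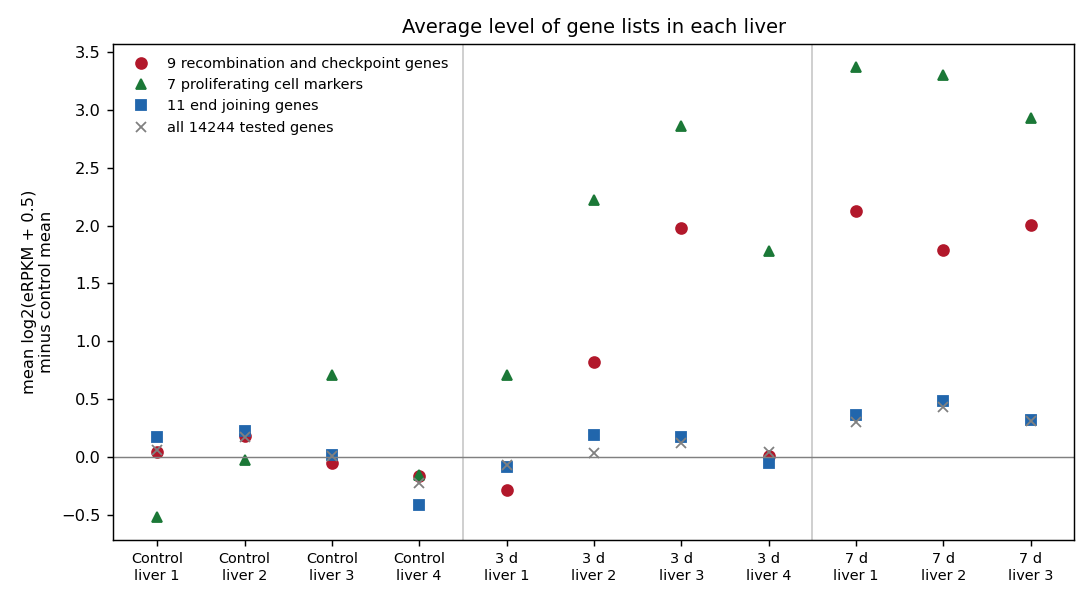
Mean of log2(eRPKM + 0.5) minus the control mean (y axis, log2 units) for each liver (x axis), averaged over the 9 genes, 7 markers of proliferating cells, 11 end joining genes and all 14244 tested genes. Livers 2 and 3 at 3 days stand above the controls for the 9 genes (0.82 and 1.98) while livers 1 and 4 do not (-0.29 and 0.01), and the 3 livers at 7 days lie between 1.79 and 2.13.

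Markers of other cell types moved at 7 days as well. In bulk tissue, fewer cells of a type and less RNA per cell cannot be told apart. For 6 hepatocyte genes the summed level spanned 1224 to 3879 eRPKM in the control livers, 1546 to 2034 after 3 days of induction and 1061 to 1181 after 7 days, so the 7-day livers were below all controls. Reads of Alb barely followed depth, however. It had 2417 reads in the shallowest control and 3102 in the deepest, and 2840 to 2934 at 7 days. Its eRPKM thus fell as depth rose, and the part of depth in the lower sum was not tested. The sum of 4 macrophage genes was 142 to 293, 162 to 313 and 508 to 579 in the same order, that of 5 endothelial genes was 52.4 to 106, 67.5 to 106 and 123 to 130, and that of 5 cholangiocyte genes was 37.5 to 49.0, 40.5 to 84.5 and 61.5 to 111. Sums for 5 stellate cell genes (129 to 169 in controls, 84.5 to 91.5 at 7 days) and 4 genes of erythroid precursors (45.4 to 110, then 28.1 to 33.2) were lower at 7 days. The 6 lymphocyte genes had sums of 5.91 to 13.0 in control livers, of 2.84 to 6.28 after 3 days and of 6.19 to 16.9 after 7 days. The lists did not move as a block. Among the endothelial genes Cdh5 was at 11.1 to 23.1 eRPKM in the controls and 46.7 to 53.8 at 7 days, whereas Kdr (10.9 to 24.3, then 15.6 to 19.2) and Tek (5.501 to 11.1, then 6.24 to 7.40) overlapped. None of the markers was at 0 in all livers. Their part in the change of the 9 genes was not tested.

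The other genes of these pathways were taken from 7 lists with 73 genes, of which 71 were in the table and 71 were tested. These lists too were chosen with earlier results of the data known. At 7 days 28 of the 71 (39.4%) were called higher and 0 lower, against 18.0% and 5.77% of all tested genes, with a median log2 fold change of 0.91. With quantile normalisation the split was 15 higher and 5 lower (Atm, Rad51d, Uimc1, Wrn and Xrcc5), against 13.0% higher and 12.8% lower of all tested genes. Without control livers 1 and 2 and 7-day liver 2 it was 6 higher and 0 lower, against 950 higher (6.67%) and 371 lower of all tested genes. Limma called 0 of the 71 at 3 days, when 13 had an unadjusted p under 0.05 (12.1% of all tested genes did), and the fit on recovered reads also called 0. Between 3 and 7 days 10 were called higher, or 14.1%, which is the background of 14.0% in that comparison.

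Among 5 genes of end recognition and trimming, 2 were called at 7 days, and they included Rbbp8, whose product CtIP starts resection with MRE11. Rbbp8 went from 4.56 ± 0.983 eRPKM in the controls to 7.51 ± 3.72 at 3 days and 25.8 ± 2.86 at 7 days, a log2 fold change of 2.39 at 7 days (adjusted p 5.34e-05). Its nuclease partner Mre11a was called too, at 1.37 (adjusted p 0.00271). Dna2, the nuclease that works beside BLM, was at 0.29 (adjusted p 0.434), and Nbn, the third subunit of the MRE11 complex, was the lowest of the list at 0.04.

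Of 5 tested partners of BRCA1 and BRCA2, 2 were called at 7 days. Palb2, which bridges the pair, rose from 0.455 ± 0.115 to 4.17 ± 0.438 eRPKM (log2 fold change 2.29, adjusted p 0.000426). Bard1, the obligate partner of BRCA1 in the ubiquitin ligase, rose by 1.45 (adjusted p 0.00682). Brip1, a helicase that binds BRCA1, missed the threshold at 1.31 (adjusted p 0.0123), and Brcc3, a deubiquitinase of the BRCA1-A complex, was at -0.25 (adjusted p 0.422).

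The list of strand exchange factors had 4 calls among 11 genes. Fignl1, an ATPase that acts in recombination, had the largest log2 fold change of the 71 genes in this fit, 3.39 (0.971 ± 0.441 to 14.7 ± 3.21 eRPKM, adjusted p 0.000717). Rad54b, the homologue of Rad54l, was at 1.52 and missed the threshold (adjusted p 0.0168), and Swi5 was at -0.18 (adjusted p 0.596).

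Fanconi anaemia genes gave 6 calls among 14. Ube2t, the ubiquitin-conjugating enzyme that modifies FANCD2, rose by 2.29 (0.727 ± 0.519 to 5.16 ± 0.631 eRPKM, adjusted p 0.00166). Fanci, the partner that is modified together with FANCD2, did not pass at 1.05 (adjusted p 0.0399). Fancl, the ligase of the same reaction, was the lowest of the list at 0.22 (adjusted p 0.522).

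In the list of the BLM complex and junction resolution, 4 of 9 genes were called, but not the subunits of the BLM complex itself. Rmi1 was at 0.23 (adjusted p 0.45), Rmi2 at 0.51 (adjusted p 0.189) and Top3a at 0.66 (adjusted p 0.0906). Eme1, a subunit of a structure-specific nuclease, rose by 2.37 (0.456 ± 0.303 to 4.28 ± 0.221 eRPKM, adjusted p 0.000399), and its partner Mus81 by 0.85 (adjusted p 0.00836). Wrn, another RecQ helicase, was at -0.20 (adjusted p 0.553).

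Checkpoint signalling had 10 calls among 16 genes, with a median log2 fold change of 1.75. The apical kinases did not pass, with Atm at -0.13 (adjusted p 0.651) and Atr at 0.33 (adjusted p 0.147). Of the factors between ATR and CHK1, Rad1 at 0.18 (adjusted p 0.587), Hus1 at 0.30 (adjusted p 0.353) and Rad17 at 0.15 (adjusted p 0.647) did not pass. Those that were called included Rad9a at 1.96 (1.98 ± 0.521 to 9.09 ± 1.79 eRPKM, adjusted p 0.000238) and Atrip at 1.07 (adjusted p 0.00319). Topbp1 was called at 1.62 (5.77 ± 0.614 to 18.9 ± 3.09 eRPKM, adjusted p 0.00169). Clspn, which encodes claspin, was called at 2.04 (0.695 ± 0.22 to 4.37 ± 0.341 eRPKM, adjusted p 0.00365). The phosphatase Cdc25a, a substrate of the checkpoint kinases, rose by 2.09 (1.87 ± 0.417 to 9.46 ± 0.558 eRPKM, adjusted p 0.00118), and Cdc25b by 2.45 (adjusted p 0.000116).

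Non-homologous end joining, which rejoins ends without a template, was listed for comparison. Limma called 0 of its 11 genes in either direction at 7 days, 4 had an unadjusted p under 0.05 (47.3% of all tested genes did), and the fit on recovered reads also called 0. The median log2 fold change was 0.33, near the 0.26 of all tested genes, and fell to -0.20 with quantile normalisation, where Xrcc5 was called lower. The values ran from -0.34 for Xrcc5, a subunit of the Ku dimer, to 0.91 for the polymerase gene Polm. The difference between this list and the recombination lists was not tested.

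**Figure D4:**
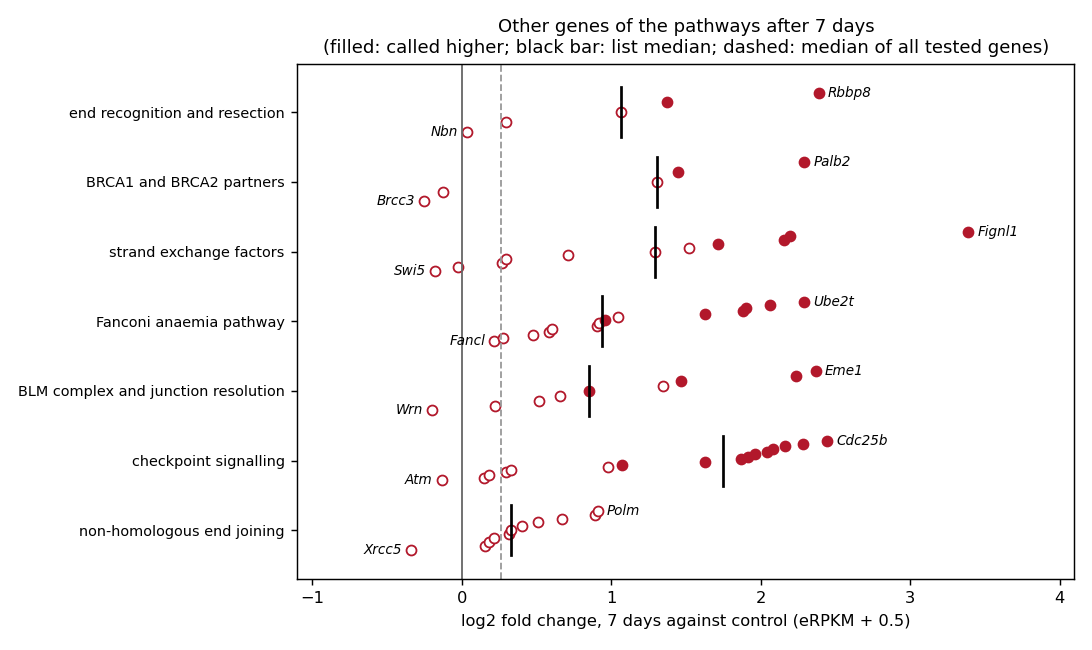
Log2 fold change at 7 days against control (x axis, eRPKM + 0.5) of the 71 tested pathway genes, 1 point per gene in 7 lists; filled points were called higher, the black bar is the list median and the dashed line is the median of all tested genes (0.26). Checkpoint signalling has 10 filled points of 16 and non-homologous end joining has 0 of 11.

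The genes whose pattern over the 11 livers was most like the average of the 9 were Rad18, Orc1, Melk, Suv39h1, Rrm1, BC030867, Slfn9 and Traip. Likeness was the root mean square difference of log2(eRPKM + 0.5) from the control mean, which was 0.18 for Rad18, 0.21 for Traip and 1.16 for the median of the other genes. Among the 9 genes themselves it ran from 0.21 for Brca2 to 0.72 for Blm, so that Blm followed the common pattern least. Rad18, a ubiquitin ligase of damage tolerance, was at 1.29 ± 0.363, 2.77 ± 2.09 and 7.02 ± 0.624 eRPKM in the controls, at 3 days and at 7 days. Orc1, a subunit of the origin recognition complex, was at 0.497 ± 0.212, 1.16 ± 1.18 and 3.78 ± 0.618, and Rrm1, a subunit of ribonucleotide reductase, at 6.29 ± 0.773, 12.3 ± 10.4 and 25.05 ± 3.11. These genes were chosen for this likeness, so their pattern is a description. Melk and BC030867, like Exo1, passed the filter on low values only with their 7-day livers counted. The comparisons of 3 and of 7 days with the controls share the same 4 control livers.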

How the data were processed

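Per the methods and the submitters' processing notes, the authors masked low-quality bases, aligned the reads to mm9 with TopHat2 2.0.8 without strand information (TruSeq v2 libraries), and the notes also name SAMtools, featureCounts 1.4.5-p1 and DESeq2. The deposited values used here are eRPKM, a kind of RPKM: exonic reads per kilobase, scaled by the authors to each library. Columns with the authors' own mean, log2 fold change and adjusted p were not used.

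Values were whole multiples of 1 step per gene, and 100% of 177553 values above 0 gave whole reads within 0.1 read. The 14244 of 20893 genes that reached 0.5 eRPKM in 3 or more libraries were fitted on log2(eRPKM + 0.5) with limma 3.58.1 in R 4.3.3, with 3 groups in one model, a mean-variance trend and Benjamini-Hochberg adjustment. All adjusted p-values are from that fit. The planned test for normalized values stood in for the study's count model. Scripts were tested on simulated data.

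Named genes were the 9 members, their closest partners, the ends of each pathway list, the 8 genes with the most similar pattern, 4 proliferation genes and Yap1. Mre11a, Mus81, Rad1, Hus1, Rad17, Rad9a, Atrip and the genes named under other settings were added after their values were seen. The members and lists were chosen with earlier results of these data known. One list entry was misspelled and read as Clspn, and 1 closest partner is not reported here. Positions are from the mm9 annotation, promoters from RefSeq on GRCm38.p6, and the builds were not mixed. Replicate numbers did not pair the livers.

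Alternatives were other pseudocounts, filters, normalisations, models and covariates, limma-voom on recovered reads, female livers, and leaving out each library. Leaving out the libraries with most genes above 0, or those with the suffix MF, was added after seeing the data.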

Additional observations from a re-analysis of the deposited data

Results flagged for a closer look

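In 52 sets of 4 livers (26 genes in the controls and at 3 days), 3 had a liver far from the others by Dixon's ratio, the gap to the nearest liver over the whole range and its 95% limit for 4 values. Chance gives about 1 in 20 independent sets. These sets share the same livers, so that rate cannot be compared with the 3 seen. Brca2 in control liver 4 was the lowest at a ratio of 0.830. Rad54l and Rbbp8 were the highest in 3-day liver 3, at ratios of 0.858 and 0.835.

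Among the same 26 genes (the 9 genes and their closest partners), the effect at 7 days was larger than that at 3 days by a test of the step itself for 5. On the log2 scale the step was 1.89 for Exo1, 1.73 for Palb2, 1.80 for Rbbp8, 1.78 for Clspn and 1.55 for Cdc25a. These 5 were called higher between 3 and 7 days, as were 14.0% of all tested genes.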

How the results depend on the processing

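Of the 9 genes, the number called higher at 7 days was 6, and fell to 3 with quantile normalisation, 1 with log2 depth as a covariate and 0 without the 3 libraries with most genes above 0. Among the 71 pathway genes 28 were called at 7 days. Of the other fits, 15 were called with quantile normalisation, 11 with the depth covariate, 16 in female livers and 6 without those 3 libraries. Over all tested genes 13.0%, 7.72%, 10.7% and 6.67% were called higher in these 4 fits. Leaving out 1 library gave 3 to 8 of the 9 genes and 15 to 31 of the pathway genes, with 11.1% to 19.4% of all tested genes. At 3 days 0 and 0 were called, leaving out 1 library included, and 1 pathway gene (Tipin) at the looser threshold, an adjusted p under 0.05 whatever the fold change. At that threshold 0.281% of all tested genes were called higher. Between 3 and 7 days 1 of the 9 was called. This became 0 with a pseudocount of 0.1, no filter, size factors, quantile normalisation, only the 2 groups compared, the depth covariate, female livers, or without the 3 libraries with most genes above 0 or those with the suffix MF. It became 2 with limma-voom and 6 at the looser threshold, and leaving out 1 library gave 0 to 8, the 8 without 3-day liver 3. Over all tested genes 19.0%, 25.4% and, without 3-day liver 3, 18.4% were called higher. The 10 pathway genes of that comparison became 6 with a pseudocount of 0.1, 5 with no filter, and 4 with size factors or quantile normalisation. They became 3 with the 2 groups alone, the depth covariate or female livers. Over all tested genes 12.1%, 8.74%, 10.6%, 10.1%, 11.5%, 7.66% and 7.18% were called higher in these fits in turn. The pathway genes became 2 without the 3 libraries with most genes above 0 (5.78% of all tested genes), and 0 without those with the suffix MF (4.72%). They became 22 with limma-voom (19.0%) and 25 at the looser threshold (25.4%). Without 1 library they ran from 3 to 24, the 24 without 3-day liver 3, against 7.36% to 18.4% of all tested genes. With the replicate block, 4 of the 9 and 26 pathway genes were called at 7 days, and 0 and 3 between 3 and 7 days. Of all 14244 tested genes, 2032 were called higher at 7 days with this block and 1429 between 3 and 7 days. Replicate numbers did not pair the livers, however (correlations of same-numbered livers -0.22 to 0.27). Over all genes at 7 days, 2561 were higher and 822 lower in the reported fit. Size factors gave 1951 and 1254, quantile normalisation 1857 and 1821, and limma-voom 2801 and 949, and the median log2 fold change of all genes went from 0.26 to 0.03, -0.08 and 0.22. The sign of the 3-day difference of Chek2 (0.02) turned to -0.010 with a pseudocount of 0.1, -0.0046 with size factors, -0.085 with the depth covariate, -0.14 in female livers and -0.072 with limma-voom. Without 1 library it ran from -0.38 to 0.31, that of Blm from -0.28 to 0.31 and that of Rad54l from -0.40 to 0.44. The causes were not tested. Counts of 1 to 6 reads of Exo1 and 1 to 14 of Fancd2 per control library limit how well their control levels are known.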
